A study of Mus musculus with 9 samples.

Results

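The Ifit and Ifitm restriction factors described here are 9 mouse genes, *Ifit1*, *Ifit2*, *Ifit3*, *Ifit3b*, *Ifitm1*, *Ifitm2*, *Ifitm3*, *Bst2* and *Rsad2*, out of 54838 gene IDs in the expression tables. They were chosen by symbol as antiviral genes, with earlier results of these data known, and each of the 9 symbols matched 1 Ensembl gene ID. The study asked how loss of *Mettl3*, the catalytic subunit of the RNA m6A methyltransferase, leads to death of intestinal epithelial cells, and whether the kinase RIPK1 is needed for it. RNA was sequenced from 7 libraries of intestinal organoids, which are cultures of gut epithelium grown from crypts, and expression was given as FPKM, fragments scaled to transcript length and to all mapped fragments of the library. In every group the organoids came from *Vil-CreERT2*;*Mettl3* fl/fl mice. Their Cre recombinase is driven by the villin promoter, active in intestinal epithelium, and becomes active with 4-hydroxytamoxifen (4-OHT), for which ethanol (EtOH) is the solvent control. EtOH, or 4-OHT at 500 nM, was given for 2 days, and the RIPK1 inhibitor necrostatin-1 (Nec-1), or its solvent DMSO, for 5 days. The concentration of Nec-1 is stated differently in different places of the study and is not given here. Each combination had 2 libraries except for 4-OHT Nec-1, which had 1. No group without Cre received 4-OHT, so effects of the compound and of the deletion cannot be told apart. The labels do not say whether libraries of a group came from separate cultures or animals, so p-values measure only the spread between these libraries, which may be technical.

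*Mettl3* (ENSMUSG00000022160), the gene meant to be deleted, was not lower under the 4-OHT label. It stood at 2.70 and 2.71 FPKM (EtOH DMSO), 2.41 and 2.47 (EtOH Nec-1), 3.72 and 4.14 (4-OHT DMSO), and 3.36 (4-OHT Nec-1). Between the DMSO groups it was higher in 4-OHT (limma log2 fold change 0.41, standard error 0.10, adjusted p = 0.0231), though not called with median centring (0.25, limma adjusted p = 0.0796). Whole-gene FPKM do not show whether the floxed part was cut out, and every direction between EtOH and 4-OHT below rests on the labels of the libraries. FPKM summed to between 450207 and 498712 per library. From the steps between low values, the relative depth of the libraries, with EtOH DMSO 1 set to 1, was 0.850 to 1.03, while the number of fragments behind any value is unknown.

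Restriction factors are proteins that block steps of viral infection inside the cell, and most are made when interferon binds its receptor at the cell surface. Kinases at the receptor activate transcription factors, among them STAT2 with IRF9, that act on interferon-stimulated response elements (ISREs) in promoters, and a second promoter element is the gamma-activated site (GAS). IFIT proteins bind foreign RNA in the cytoplasm and hinder its translation, IFITM proteins sit in membranes and impede fusion of viral envelopes, BST2 (tetherin) holds budding virions at the cell surface, and RSAD2 (viperin) makes a chain-terminating nucleotide. In the gut, the epithelium is known to respond to type I and type III interferon.

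The promoter windows of the 7 genes that could be tested are shown, from RefSeq on GRCm38.p6, the assembly known as mm10 that the submitters' processing notes name. Each window runs from 250 bases before to 50 after the annotated start, 5′ to 3′ in the direction of transcription, and all 9 genes had one. The annotated spans of *Ifit2*, *Ifit3*, *Ifit3b*, *Ifitm1* and *Ifitm2* reach further upstream than the starts used here. That of *Ifitm2* goes back to base 140959686. For these genes the presence, absence and position of a match hold only for the start used. Capitals mark matches to the core letters of the ISRE, GAAANNGAA, on either strand, where the reverse strand reads TTCNNTTTC. The windows lie at chr19:34640639-34640938 (+) for *Ifit1*, chr19:34583279-34583578 (+) for *Ifit3*, chr19:34607707-34608006 (+) for *Ifit3b*, chr7:140955912-140956211 (-) for *Ifitm2*, chr7:141010695-141010994 (-) for *Ifitm3*, chr8:71537423-71537722 (-) for *Bst2* and chr12:26456403-26456702 (-) for *Rsad2*.
Ifit1: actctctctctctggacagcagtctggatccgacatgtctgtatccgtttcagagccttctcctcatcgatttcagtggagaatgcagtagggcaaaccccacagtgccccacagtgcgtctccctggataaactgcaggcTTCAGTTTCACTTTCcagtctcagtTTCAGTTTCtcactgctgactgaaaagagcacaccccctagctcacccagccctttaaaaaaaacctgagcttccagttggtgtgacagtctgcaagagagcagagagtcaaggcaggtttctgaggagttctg
Ifit3: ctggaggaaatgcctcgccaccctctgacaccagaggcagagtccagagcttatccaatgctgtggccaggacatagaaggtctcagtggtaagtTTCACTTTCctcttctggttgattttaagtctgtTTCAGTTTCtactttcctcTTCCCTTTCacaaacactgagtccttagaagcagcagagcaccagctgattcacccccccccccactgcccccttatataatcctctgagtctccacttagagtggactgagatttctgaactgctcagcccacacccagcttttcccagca
Ifit3b: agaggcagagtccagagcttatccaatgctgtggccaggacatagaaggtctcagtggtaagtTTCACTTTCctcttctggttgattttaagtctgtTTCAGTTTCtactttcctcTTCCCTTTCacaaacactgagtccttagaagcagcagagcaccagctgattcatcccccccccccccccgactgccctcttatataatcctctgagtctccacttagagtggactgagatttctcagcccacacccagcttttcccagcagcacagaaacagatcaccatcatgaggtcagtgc
Ifitm2: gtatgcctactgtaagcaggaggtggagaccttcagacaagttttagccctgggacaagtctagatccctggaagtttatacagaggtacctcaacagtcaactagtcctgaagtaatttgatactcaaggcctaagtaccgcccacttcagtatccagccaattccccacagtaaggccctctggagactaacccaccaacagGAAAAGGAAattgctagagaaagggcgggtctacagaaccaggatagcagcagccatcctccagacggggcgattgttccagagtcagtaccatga
Ifitm3: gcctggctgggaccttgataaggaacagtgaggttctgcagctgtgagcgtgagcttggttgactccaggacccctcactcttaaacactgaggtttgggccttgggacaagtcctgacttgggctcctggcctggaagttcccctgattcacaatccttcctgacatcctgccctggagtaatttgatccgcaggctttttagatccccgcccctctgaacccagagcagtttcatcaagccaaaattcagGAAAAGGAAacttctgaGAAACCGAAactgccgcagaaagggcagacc
Bst2: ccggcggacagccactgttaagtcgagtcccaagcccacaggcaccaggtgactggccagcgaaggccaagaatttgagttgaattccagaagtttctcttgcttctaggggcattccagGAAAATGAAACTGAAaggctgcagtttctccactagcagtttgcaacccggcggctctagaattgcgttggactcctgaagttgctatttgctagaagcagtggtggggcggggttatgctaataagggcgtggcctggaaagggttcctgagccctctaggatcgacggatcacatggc
Rsad2: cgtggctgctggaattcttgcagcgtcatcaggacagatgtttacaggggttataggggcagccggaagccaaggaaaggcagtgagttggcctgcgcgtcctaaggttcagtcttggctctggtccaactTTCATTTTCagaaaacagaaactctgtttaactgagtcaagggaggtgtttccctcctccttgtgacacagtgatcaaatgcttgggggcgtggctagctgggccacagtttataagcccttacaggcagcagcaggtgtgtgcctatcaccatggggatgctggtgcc

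The ISRE core was present in 7 of the 9 genes' windows, and in 8.55% of all 32817 windows of that length in the RefSeq table. Counting the annotated start as base 0, *Ifit1* held 3 matches, at -109 to -101, -103 to -95 and -84 to -76, of which the first 2 share letters. *Ifit3* held 3 as well, beginning at -155, -121 and -102, and *Ifit3b* held the same arrangement beginning at -187, -153 and -134. Aligned with free ends, the windows of *Ifit3* and *Ifit3b* were identical at 258 of 260 aligned bases (99.2%), with 14 bases in gaps, so these neighbours are near copies at the promoter too. *Ifitm2* and *Ifitm3* matched at 142 of 220 aligned bases (64.5%). The *Ifitm2* window had 1 ISRE core, at -46 to -38, and that of *Ifitm3* had 2, just past the start at 2 to 10 and 19 to 27. *Bst2* had 2 overlapping matches, at -130 to -122 and -124 to -116, and *Rsad2* had 1, at -119 to -111. The GAS letters TTCNNNGAA, present in 8.29% of all windows, occurred in *Ifit2* from -241, in *Ifitm3* from 13 and in *Bst2* from -136, and in the last 2 genes they shared letters with an ISRE core. Neither of the 2 windows of *Ifit2* (chr19:34550444-34550743 and chr19:34550838-34551137, both +) nor that of *Ifitm1* (chr7:140967826-140968125, +) held the ISRE core, which says only that these letters are not in these windows. Among other listed interferon pathway genes with a window, 6 of 11 other effectors, 2 of 5 sensors and adaptors, 1 of 8 kinases and transcription factors, 1 of 2 feedback inhibitors, 2 of 8 interferon ligands and 0 of 5 receptors held the ISRE core. A match is a description of letters, and binding was not measured here.

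**Figure D1:**
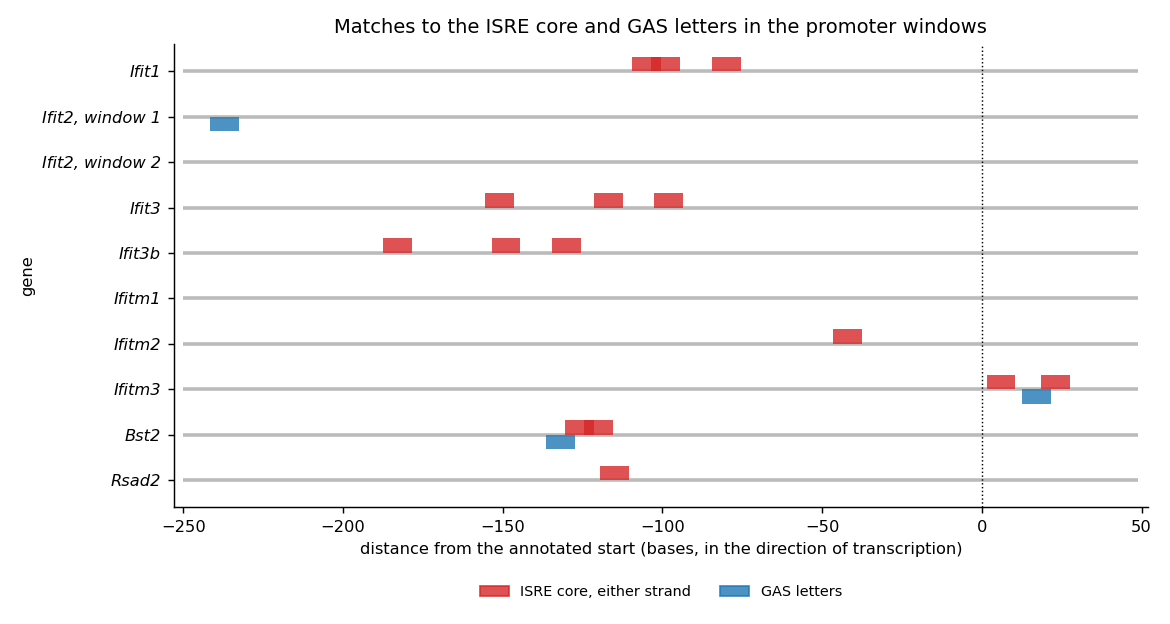
Each grey line is a promoter window of 1 of the 9 genes (*Ifit2* has 2), drawn by distance in bases from the annotated start at 0; red boxes are matches to the ISRE core and blue boxes matches to the GAS letters. ISRE matches lie between -187 and -76 in the *Ifit* genes that have the ISRE core, and past the start in *Ifitm3*.

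The genes also lie together in the genome. *Ifit2*, *Ifit3*, *Ifit3b* and *Ifit1* span 99.5 kb of chromosome 19 (34550550 to 34650009) on the + strand, and *Ifitm2*, *Ifitm1* and *Ifitm3* span 55.9 kb of chromosome 7 (140954837 to 141010744). *Bst2* (chromosome 8) and *Rsad2* (chromosome 12) stand alone. The *Ifit1* window shares 245 bases with that of *Ifit1bl2*, a paralog transcribed in the opposite direction.

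In control organoids the 9 genes ranged from near 0 to 260.1 FPKM. *Ifitm2* was the most abundant in EtOH DMSO, followed by *Bst2* and then *Ifitm3*, and these 3 did not overlap. *Ifit1* came next, above 1 FPKM, and *Ifit3*, *Ifit3b*, *Ifitm1*, *Ifit2* and *Rsad2* were each below 1 FPKM in both libraries. The order of those 5 was not separated, since *Ifit3* and *Ifit3b* overlapped, as did *Ifit2* and *Rsad2*, and *Ifitm1* reached into the range of *Ifit3*. In 4-OHT DMSO the order was different. *Ifitm3* and *Bst2* came first with overlapping values, then *Ifitm2*, then *Ifit1* and *Ifit3* with overlapping values.

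Among the IFIT genes, *Ifit1* (ENSMUSG00000034459), whose protein recognises the 5′ end of RNA that lacks 2′-O-methylation, stood at 1.44 and 1.45 FPKM (EtOH DMSO), 1.63 and 1.43 (EtOH Nec-1), 43.4 and 68.2 (4-OHT DMSO) and 12.4 (4-OHT Nec-1). *Ifit3* (ENSMUSG00000074896) stood at 0.719 and 0.482, 0.742 and 0.653, 33.6 and 77.2, and 3.80 FPKM in the same order of groups. *Ifit3b* (ENSMUSG00000062488), its near copy, stood at 0.728 and 0.558, 0.538 and 0.516, 19.9 and 42.0, and 2.57 FPKM. All 3 were far above every EtOH library in both 4-OHT DMSO libraries, and in 4-OHT Nec-1 they lay between the EtOH and the 4-OHT DMSO values. Because *Ifit3* and *Ifit3b* are so alike, fragments could have been shared between them, and their separate levels are uncertain. *Ifit2* (ENSMUSG00000045932), another RNA-binding member, behaved unevenly, with 0.0793 and 0.322 FPKM (EtOH DMSO), 0.307 and 0.373 (EtOH Nec-1), 4.91 and 0.472 (4-OHT DMSO), and 0.522 (4-OHT Nec-1). Its high value thus rests on the first 4-OHT DMSO library. The gap of 2.01 log2 units between the 4-OHT DMSO libraries was matched or exceeded in that direction by 39 of 12567 genes (0.310%), whereas the other 8 genes were all higher in the second library. Over all those genes, 48.1% were higher in the second library.

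Among the IFITM genes, *Ifitm3* (ENSMUSG00000025492), which acts in endosomes, stood at 11.3 and 12.9 FPKM (EtOH DMSO), 8.13 and 8.96 (EtOH Nec-1), 254 and 333 (4-OHT DMSO), and 13.1 (4-OHT Nec-1). Its level with Nec-1 in 4-OHT organoids was 1.08 times the EtOH DMSO mean and 1.53 times the EtOH Nec-1 mean. *Ifitm2* (ENSMUSG00000060591) went the other way, with 259.6 and 260.1 FPKM (EtOH DMSO), 212 and 219 (EtOH Nec-1), 155 and 163 (4-OHT DMSO), and 147 (4-OHT Nec-1). Its groups did not overlap, and the highest values were in EtOH DMSO. *Ifitm1* (ENSMUSG00000025491), which acts at the cell surface, was below 1 FPKM in every library and was listed at 0 in the first 4-OHT DMSO library, with 0.106 in the second and 0.0457 (4-OHT Nec-1), beside 0.245 and 0.545 (EtOH DMSO) and 0.213 and 0.201 (EtOH Nec-1). The makeup of the *Ifitm* group therefore differed between groups. *Ifitm3* made up 4.18% and 4.70% of the summed FPKM of *Ifitm1*, *Ifitm2* and *Ifitm3* in EtOH DMSO, 62.1% and 67.1% (4-OHT DMSO), and 8.21% (4-OHT Nec-1). For the *Ifit* group the sum went from 2.97 and 2.82 FPKM in EtOH DMSO to 102 and 188 in 4-OHT DMSO and stood at 19.3 (4-OHT Nec-1), with *Ifit1* contributing between 36.3% and 64.2% in every library.

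**Figure D2:**
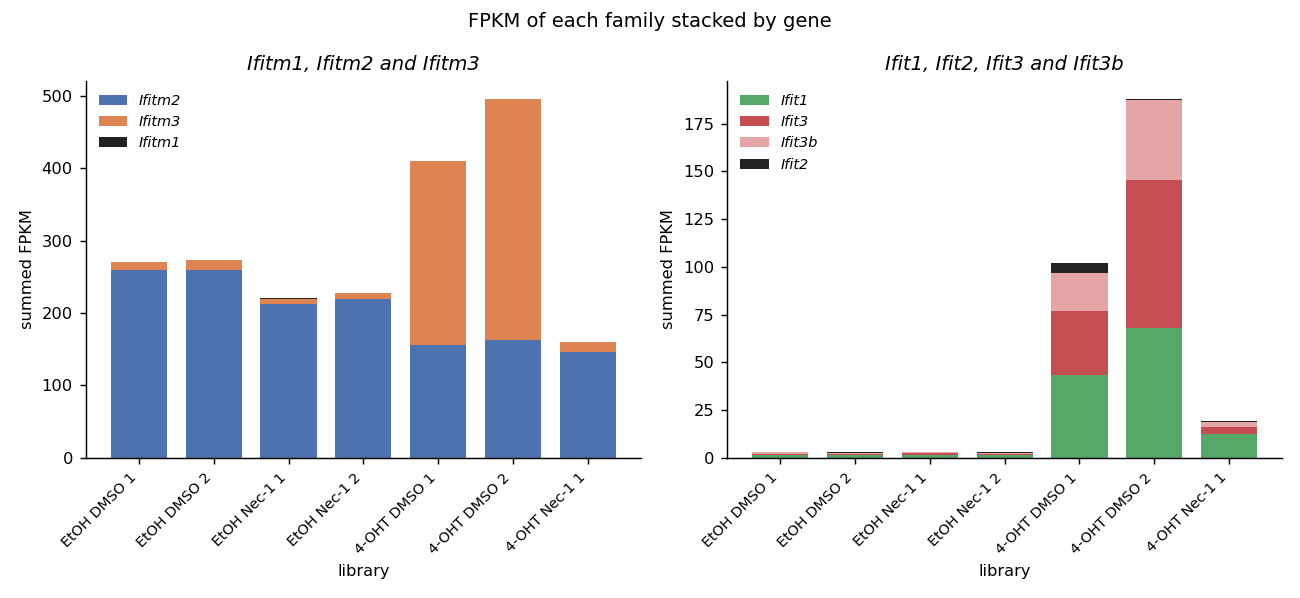
Bars give FPKM in each of the 7 libraries, stacked by gene, for *Ifitm1* to *Ifitm3* on the left and the *Ifit* genes on the right, with the axes on different scales from 0. In 4-OHT DMSO *Ifitm3* makes up 62.1% and 67.1% of its stacks, and the *Ifit* stacks reach 102 and 188 FPKM.

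*Bst2* (ENSMUSG00000046718) stood at 18.5 and 19.5 FPKM (EtOH DMSO), 16.4 and 15.4 (EtOH Nec-1), 243 and 282 (4-OHT DMSO), and 39.6 (4-OHT Nec-1). *Rsad2* (ENSMUSG00000020641) was nearly silent in controls, with 0.201 and 0.0219 FPKM (EtOH DMSO) and 0.262 and 0.298 (EtOH Nec-1), and stood at 12.2 and 21.7 (4-OHT DMSO) and 2.57 (4-OHT Nec-1). Both genes were high in the 2 libraries labelled 4-OHT DMSO and intermediate in 4-OHT Nec-1. All 9 genes summed to 293 and 296 FPKM (EtOH DMSO), 767 and 988 (4-OHT DMSO), and 221 (4-OHT Nec-1), a sum that *Ifitm2* carries in the controls. Without *Ifitm2*, the 8 remaining genes summed to 33.3 and 35.8 FPKM (EtOH DMSO), 611 and 825 (4-OHT DMSO), and 74.5 (4-OHT Nec-1).

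**Figure D3:**
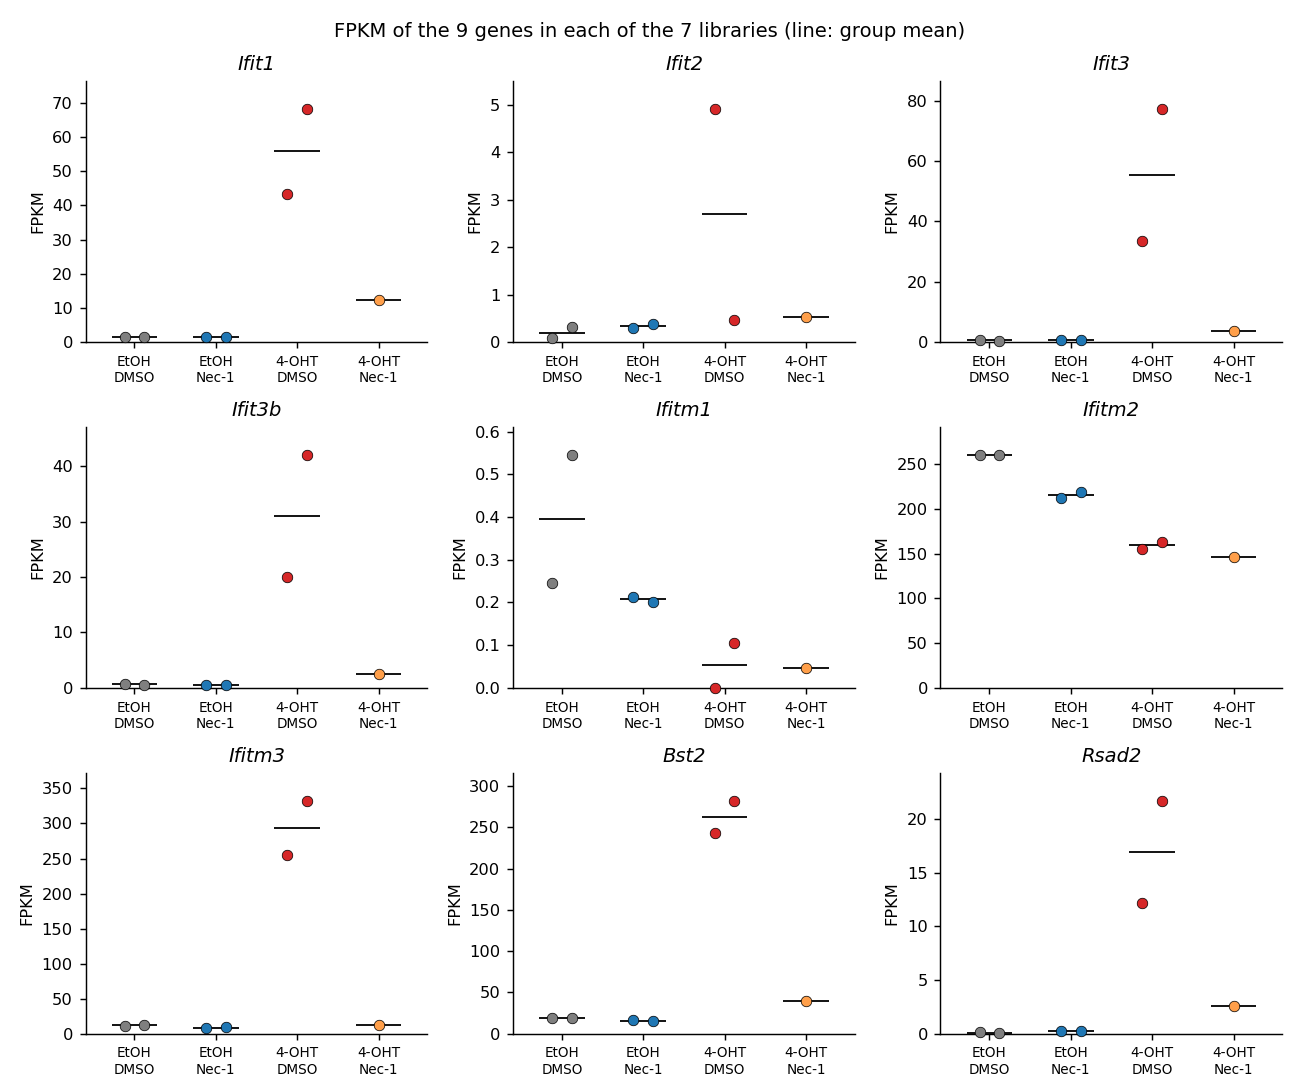
Each panel shows the FPKM of 1 gene (axis from 0, scale set per gene) in the 4 groups, with points for libraries and a line for the group mean. For 6 genes the libraries labelled 4-OHT DMSO stand far above all others, *Ifitm2* steps down, and *Ifit2* is high in 1 library only.

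Whether deletion of *Mettl3* goes with altered expression was addressed by comparing 4-OHT DMSO with EtOH DMSO. The test was limma on log2(FPKM + 1) and took in the 12702 genes that reached 1 FPKM in 2 or more libraries, a gene being called at a Benjamini-Hochberg adjusted p under 0.05. Of the 9 genes 7 passed that filter, of which 6 were called higher and 1 lower, while 24.5% of all genes tested were called higher and 16.7% lower. *Ifit3*, *Ifit3b* and *Rsad2* passed the filter through the libraries labelled 4-OHT alone, so they had to differ, and the count of called genes is no measure of how the family behaves. At 1 FPKM or more in every library only 4 of the 9 genes remained (*Ifit1*, *Ifitm2*, *Ifitm3* and *Bst2*), of which 3 were called higher and 1 lower. Of all 10440 genes tested under that filter, 2673 were called higher and 1831 lower. Since whole organoids were sequenced, more cells of a type and more RNA per cell cannot be told apart.

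By limma, *Ifitm3* rose by 4.48 log2 units (standard error 0.15, adjusted p = 0.000256), and *Bst2* by 3.71 (standard error 0.10, adjusted p = 0.000256), each higher in all pairings of libraries. *Ifit1* rose by 4.50 (standard error 0.21, limma adjusted p = 0.000351). These 3 genes had more than 1 FPKM in every library. With a pseudocount of 0.1 their log2 fold changes were 4.58, 3.78 and 5.14, so that of *Ifit1* depends more on the pseudocount. *Ifit3* rose by 5.03 (standard error 0.37, limma adjusted p = 0.000788), *Ifit3b* by 4.19 (standard error 0.33, limma adjusted p = 0.000904) and *Rsad2* by 3.96 (standard error 0.27, limma adjusted p = 0.000611). On the log2(FPKM + 1) scale the change of low genes is understated. As a ratio of mean FPKM, *Rsad2* was 152-fold higher, *Ifit3* 92.2-fold, *Ifit3b* 48.2-fold, *Ifit1* 38.6-fold, *Ifitm3* 24.3-fold and *Bst2* 13.8-fold. The ratios of low genes rest on few libraries, and with any 1 library left out they ran from 84.3 to 772 for *Rsad2*, 55.9 to 129 for *Ifit3* and 31.0 to 65.4 for *Ifit3b*. With a pseudocount of 0.1 the log2 fold change of *Rsad2* was 6.42 in place of 3.96. *Ifitm2* fell by 0.70 (standard error 0.07, limma adjusted p = 0.00200) and was lower in all pairings, a size below 1 log2 unit. *Ifit2* and *Ifitm1* did not pass the filter, having reached 1 FPKM in fewer than 2 libraries, and a fit with no filter did not call them (limma adjusted p = 0.340 and 0.117). The log2 difference of *Ifit2* was 0.30 when 4-OHT DMSO kept only its second library and 2.31 when it kept only its first.

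Median centring of the libraries moved every log2 fold change of this comparison by -0.16, and the median over all genes from 0.08 to -0.08. Relative to that shift *Ifitm3* was 4.32 higher, *Bst2* 3.56 and *Ifitm2* -0.86, with the same 6 genes called higher and *Ifitm2* called lower.

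Nec-1 by itself, in EtOH organoids, gave no called change among these genes. By limma 0 of the 7 genes tested passed the adjusted threshold between EtOH Nec-1 and EtOH DMSO, and 2 had an unadjusted p under 0.05, while 0.22% of all genes tested were called (28 of 12702, and between 9 and 14 when any 1 of the 4 libraries was left out, which leaves 1 library in a group). The 2 genes with an unadjusted p under 0.05 were *Ifitm2*, with a log2 fold change of -0.27 (standard error 0.07, limma adjusted p = 0.284), and *Ifitm3*, with -0.46 (standard error 0.15, limma adjusted p = 0.322). The share of all genes at that unadjusted threshold is not given here, so nothing is drawn from the count of 2. For *Bst2* the value was -0.24 with a 95% interval from -0.49 to 0.01 (limma adjusted p = 0.383). The intervals of the low genes were wider, from -0.48 to 0.58 for *Ifit1* and from -0.84 to 1.02 for *Ifit3*. A p above the threshold does not show that values were equal, and these intervals bound what a difference could have been. Centring on the median moved all log2 fold changes here by 0.10, to -0.17 for *Ifitm2* and -0.36 for *Ifitm3*.

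**Figure D4:**
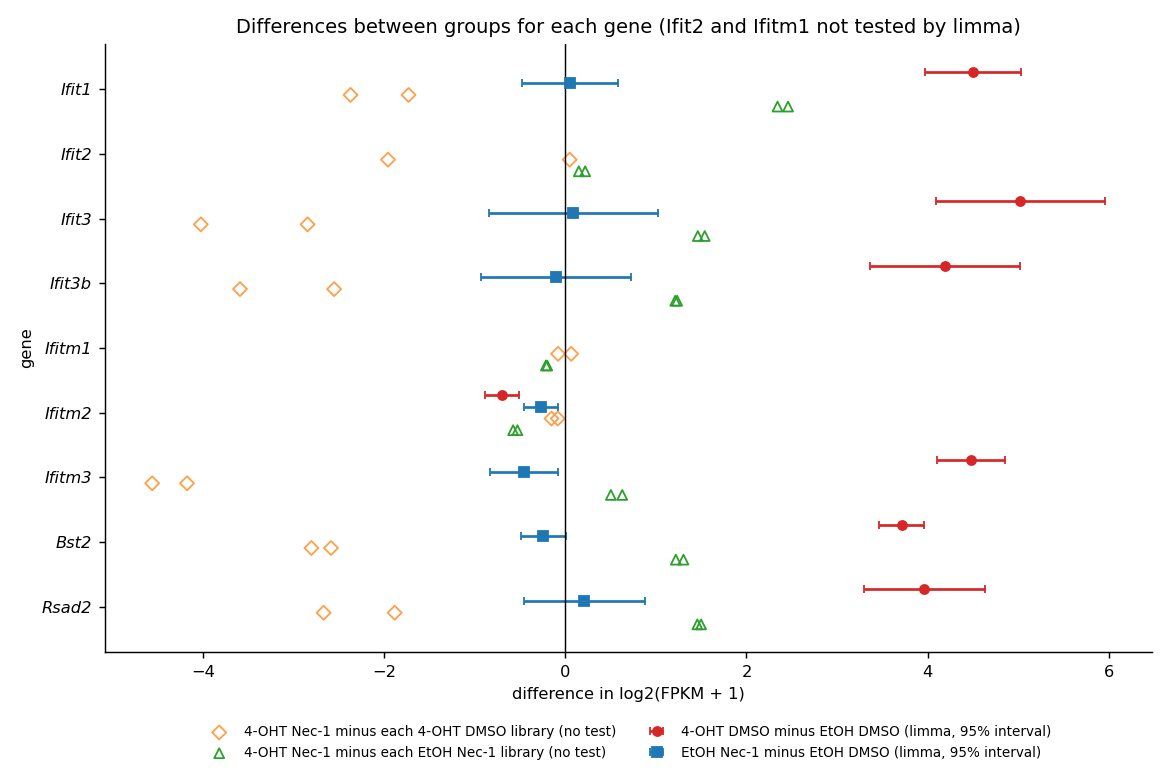
Differences in log2(FPKM + 1) for each gene, with filled symbols and 95% intervals from limma for 4-OHT DMSO and EtOH Nec-1 against EtOH DMSO, and open symbols for the 4-OHT Nec-1 library against each library of a group of 2, which are drawn without a test. The first comparison runs from -0.70 for *Ifitm2* to 5.03 for *Ifit3*, and the open diamonds of *Ifitm3* lie at -4.18 and -4.56.

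How Nec-1 altered 4-OHT organoids is given as values, since 4-OHT Nec-1 has 1 library and thus no spread of its own. A gene was counted when that library lay at least 1 log2 unit below each 4-OHT DMSO library, among genes whose mean over these 3 libraries reached 1 FPKM. Of the 9 genes 8 were considered and 6 were counted, against 1.21% of all genes considered (146 of 12036). Leaving out the first 4-OHT DMSO library gave 526 genes and 6 of the 8, and leaving out the second gave 241 and 7. The gene added there was *Ifit2*. It reached the minimum mean only through the first 4-OHT DMSO library, so it had to differ and is no support. The comparison shares the 4-OHT DMSO libraries with that against EtOH DMSO, so a high value there lowers the value here, and the 2 are given side by side with no relation drawn between them. *Ifitm3* differed by -4.18 log2 units from the first 4-OHT DMSO library and by -4.56 from the second. In the same order *Ifit3* differed by -2.85 and -4.03, *Ifit3b* by -2.55 and -3.59, *Bst2* by -2.59 and -2.80, *Rsad2* by -1.88 and -2.67, and *Ifit1* by -1.73 and -2.37. As a share of the 4-OHT DMSO mean FPKM, 4.47% of *Ifitm3*, 6.87% of *Ifit3*, 8.28% of *Ifit3b*, 15.1% of *Bst2*, 15.2% of *Rsad2* and 22.2% of *Ifit1* was left. Against each 4-OHT DMSO library by itself, the share was 11.3% of the first and 4.93% of the second for *Ifit3*, and 12.9% and 6.11% for *Ifit3b*. *Ifitm2*, in contrast, stood at 92.0% of its 4-OHT DMSO mean (differences of -0.08 and -0.15, or -0.0041 against the mean after median centring). For *Ifit2* the difference was -1.96 from the first library and 0.05 from the second. *Ifitm1* was below the minimum and differed by 0.06 and -0.08. Median centring moved all differences of this comparison by 0.11, which turned the difference of *Ifitm1* from the mean from -0.01 to 0.11.

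The genes that were lower with Nec-1 were not all back at control levels. In the 4-OHT Nec-1 library *Ifit1* was 8.55 times, *Ifit3* 6.33 times, *Ifit3b* 3.99 times, *Bst2* 2.08 times and *Rsad2* 23.0 times the EtOH DMSO mean. The value of *Rsad2* was 12.8 or 117 times against either EtOH DMSO library by itself, and 9.16 times the EtOH Nec-1 mean. Set against each EtOH Nec-1 library, which received the same inhibitor, 5 of the 7 genes considered were at least 1 log2 unit higher, as were 4.24% of all genes considered (498 of 11746). *Ifit3*, *Ifit3b* and *Rsad2* reached the minimum mean only through the 4-OHT Nec-1 library, so they had to differ, and of the other 4 genes *Ifit1* and *Bst2* were counted. The differences from the mean were 2.40 for *Ifit1*, 1.50 for *Ifit3*, 1.48 for *Rsad2*, 1.26 for *Bst2* and 1.22 for *Ifit3b*. With a pseudocount of 0.1 they were 2.94, 2.29, 2.81, 1.31 and 2.09, so the order of the low genes depends on the pseudocount. *Ifitm3* was 0.57 higher, short of 1 log2 unit, and *Ifitm2* differed by -0.55. Median centring moved these differences by -0.13, and the 5 genes stayed at least 1 log2 unit higher.

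Paralogs outside the 9 genes may share fragments with them. *Ifit1bl1* (ENSMUSG00000079339) stood at 6.10 and 5.93 FPKM (EtOH DMSO), 4.48 and 4.75 (EtOH Nec-1), 170.5 and 256 (4-OHT DMSO), and 54.2 (4-OHT Nec-1), levels above those of *Ifit1* in each library. It rose by 4.90 between 4-OHT DMSO and EtOH DMSO (standard error 0.19, limma adjusted p = 0.000275). *Ifit1bl2*, which shares most of its promoter window with *Ifit1*, rose by 1.94 (standard error 0.15, limma adjusted p = 0.000829), from 2.04 and 2.05 to 9.35 and 12.2 FPKM, and stood at 5.85 (4-OHT Nec-1). How the authors' quantification divided fragments between *Ifit1*, *Ifit1bl1* and *Ifit1bl2* is not given in the sources used here. *Ifitm5*, *Ifitm6* and *Ifitm10* stayed below 1 FPKM in every library, and *Ifitm7* was listed at 0 in all 7.

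The other listed genes of the interferon pathway were 48, of which 39 were tested, with 30 called higher and 2 lower in 4-OHT DMSO by limma, beside 24.5% and 16.7% of all genes tested. *Usp18*, *Zbp1*, *Mx1*, *Mx2*, *Oas2*, *Oas3*, *Oasl2*, *Cmpk2* and *Xaf1* were below 1 FPKM in every EtOH library and passed the filter only through libraries labelled 4-OHT, so these had to differ and their calls are no support. Of the 8 interferon ligands listed, from *Ifnb1* to *Ifnl3*, 0 passed the filter, and *Ifnb1*, *Ifna4*, *Ifnl2* and *Ifnl3* were listed at 0 in every library. Among 6 receptor chains, 3 were called higher and 1 lower, *Ifnar2* by 0.79 (limma adjusted p = 0.00801), *Ifnlr1* by 0.55 (limma adjusted p = 0.0276) and *Ifngr1* by 0.97 (limma adjusted p = 0.0113), while *Ifngr2* fell by 0.56 (limma adjusted p = 0.00455). *Ifnar1* stood at 5.17 and 6.83 FPKM (EtOH DMSO) and 5.13 and 7.32 (4-OHT DMSO). With median centring *Ifnlr1* missed the threshold (limma adjusted p = 0.0527). Of 9 kinases and transcription factors, 6 were called higher and 1 lower. *Stat2* and *Irf9*, whose products act together on ISREs, rose by 2.28 and 1.70 (limma adjusted p = 0.00241 and 0.000720), and *Irf7*, which amplifies interferon production, by 3.93 (limma adjusted p = 0.000321). *Jak2* was the gene called lower, and it fell by 0.40 (limma adjusted p = 0.0219). *Irf3* was called higher at 0.37 (limma adjusted p = 0.0260) and not with median centring (0.21, limma adjusted p = 0.126). Of 8 sensors and adaptors 7 were called higher, of 14 other effectors 13, and of the 2 feedback inhibitors tested 1, *Usp18*, by 4.18 (limma adjusted p = 0.000321). The other, *Socs3*, had a log2 fold change of -0.34 and was not called (limma adjusted p = 0.0699). With median centring *Socs3* was called lower (-0.50, limma adjusted p = 0.0225). *Isg15*, a ubiquitin-like modifier, rose by 7.75 (limma adjusted p = 0.000256), from 1.15 and 0.578 to 331 and 469 FPKM, beside the 3.71 to 5.03 of the 6 restriction factor genes called higher.

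In EtOH Nec-1 against EtOH DMSO, 0 of the 39 listed genes were called by limma, beside 0.22% of all genes tested. Of the 39, 3 had an unadjusted p under 0.05, and the share of all genes at that threshold is not given here. In 4-OHT Nec-1, 9 of 14 other effectors, 3 of 8 sensors and adaptors, 2 of 9 kinases and transcription factors and 0 of 6 receptors lay at least 1 log2 unit below each 4-OHT DMSO library, beside 1.21% of all genes considered. *Mx1*, *Mx2*, *Oas2* and *Zbp1* reached the minimum mean only through the 4-OHT DMSO libraries, so these 3 effectors and 1 sensor had to differ and are no support. *Irf9* was at 7.72 and 8.15 FPKM in 4-OHT DMSO and at 8.56 (4-OHT Nec-1), where *Stat2* was at 22.7 and 19.0 and at 10.4. So while *Ifitm3*, *Bst2*, *Ifit1*, *Ifit3* and *Ifit3b* were lower with Nec-1, *Irf9* was above both 4-OHT DMSO libraries.

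**Figure D5:**
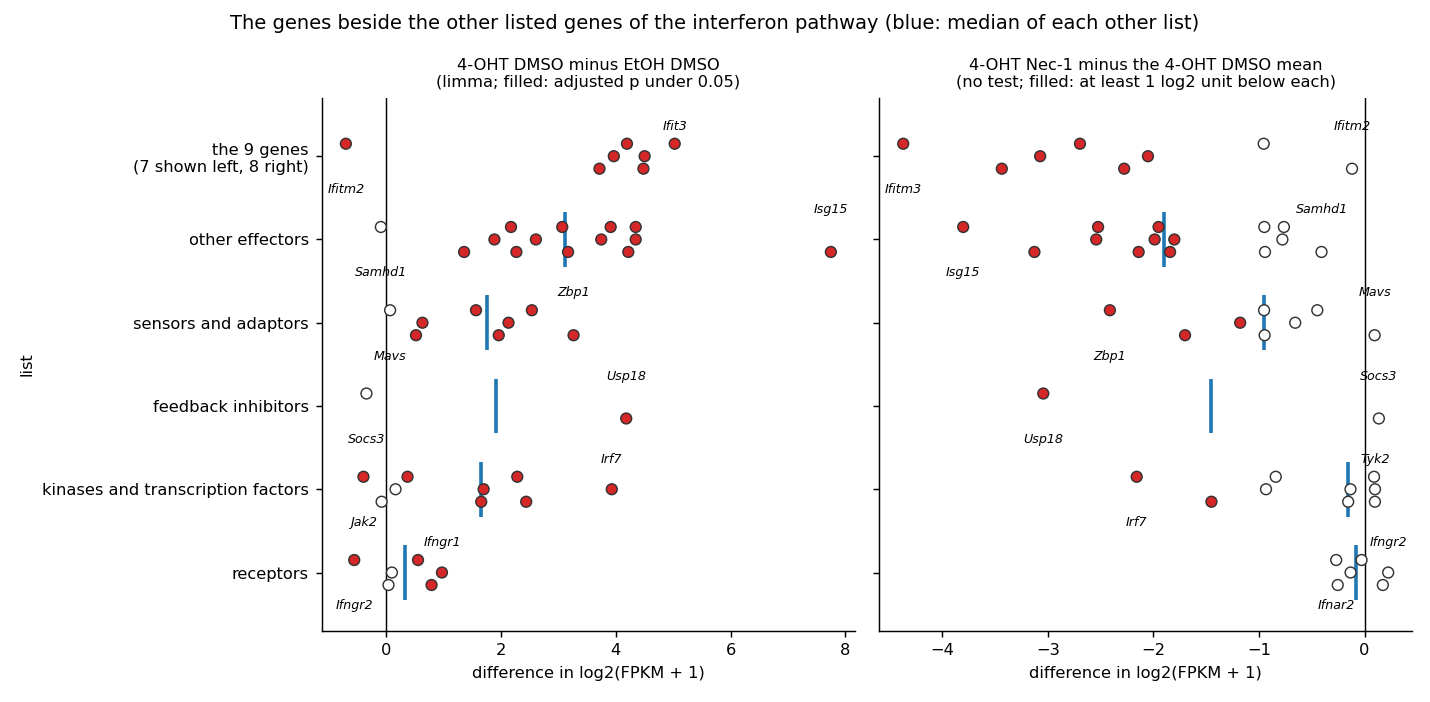
Points are genes, placed by their difference in log2(FPKM + 1), in rows by list, with a blue line at the median of each list other than the 9 genes. The left side compares 4-OHT DMSO with EtOH DMSO (limma, filled if called) and the right side compares 4-OHT Nec-1 with the 4-OHT DMSO mean (drawn without a test, filled if at least 1 log2 unit below each library). *Isg15* lies furthest right at 7.75 and *Ifitm3* furthest left at -4.37.

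The genes with the most similar course to 4 of the restriction factors were sought among all 12702 tested genes, by the root mean square difference in log2(FPKM + 1) over the 7 libraries after each gene was centred on its own mean. For *Ifit1* they were *Oasl2* (0.20), *Oas3* (0.26) and *Irf7* (0.29), and for *Ifitm3* they were *Slfn4* (0.34), *Oas2* (0.46) and *Usp18* (0.47). For *Bst2* they were *Cmpk2* (0.12), *Oas2* (0.17) and *Ifi44* (0.19), and for *Rsad2* they were *Ddx60* (0.14), *Ifi44* (0.17) and *Cmpk2* (0.18). All of these nearest genes except *Irf7* were below 1 FPKM in every EtOH library. Like *Rsad2*, they passed the filter only through libraries labelled 4-OHT. They therefore had to be low in EtOH and higher in 4-OHT, and their likeness is no support. *Ifitm3* was the least closely followed of the 4. *Slfn4*, its nearest gene, stood at 0.121 and 0.355 FPKM (EtOH DMSO), 30.6 and 56.6 (4-OHT DMSO) and 1.42 (4-OHT Nec-1). The likeness describes these 7 libraries on a log scale with a pseudocount, which brings low genes closer together.

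Markers were used to check which cells the libraries held. All 11 intestinal epithelium markers reached 1 FPKM in at least 1 library, 10 of them in every library, with *Krt8* the most abundant by its mean over libraries and *Lgr5*, a stem cell marker, below 1 FPKM in EtOH Nec-1 and in the libraries labelled 4-OHT. *Lyz1* was above *Krt8* in the first 4-OHT DMSO library (1639 and 1487 FPKM) and in 4-OHT Nec-1 (1518 and 1378). The 11 epithelium markers summed to 3236 and 3061 FPKM (EtOH DMSO), 3129 and 3043 (EtOH Nec-1), 4289.7 and 4682 (4-OHT DMSO), and 3973 (4-OHT Nec-1). The sum hides markers that moved apart, since between 4-OHT DMSO and EtOH DMSO limma called 7 of the 11 higher and 2 lower. With median centring the counts were 6 and 3, as *Krt8* lost its call (limma adjusted p = 0.140) and *Cdx2* was called lower (limma adjusted p = 0.0165). *Alpi* fell by 1.53 and *Lgr5* by 0.65 (limma adjusted p = 0.00178 and 0.0128), while *Muc2* rose by 1.18 and *Lyz1* by 0.98 (limma adjusted p = 0.000885 and 0.00177). In 4-OHT Nec-1, 8 of 10 markers considered lay below each 4-OHT DMSO library, some by no more than the 0.11 that median centring adds, and *Alpi* lay above them by 1.24 and 0.82. Of 8 leukocyte markers, 2 reached 1 FPKM (*Cd68*, the most abundant by its mean through the libraries labelled 4-OHT, and *Itgam*, which was higher than *Cd68* in both EtOH Nec-1 libraries), *Itgax* was listed at 0 in every library, and *Ptprc*, which defines leukocytes, was at most 0.0497 FPKM. The leukocyte markers summed to 2.81 and 3.32 FPKM (EtOH DMSO), 3.66 and 4.08 (EtOH Nec-1), 6.32 and 8.72 (4-OHT DMSO), and 7.63 (4-OHT Nec-1). With 4-OHT in DMSO *Cd68* rose by 1.73 (limma adjusted p = 0.00689), and *Itgam* had a log2 fold change of -0.68 and was not called (limma adjusted p = 0.0786), though it was with median centring (-0.84, limma adjusted p = 0.0490). Of 6 fibroblast markers and 4 endothelium markers 0 reached 1 FPKM, and their sums were at most 0.137 and 0.207 FPKM. By their means over libraries, though not in every library, *Col1a1* and *Pecam1* were the most abundant, and *Lum* was listed at 0 throughout. The part of epithelial makeup in the levels of the restriction factors was not tested.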

How the data were processed

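The FPKM values were deposited by the authors, whose processing notes name HISAT2 2.1.0, StringTie 1.3.3b and the mm10 assembly. The annotation behind the gene IDs is not given in the sources used here. Columns that appear in more than 1 of the deposited tables were compared, and no value differed by more than 0.000147 of itself. Sums of FPKM ran from 450207 to 498712, and relative depth read from low values was 0.850 to 1.03. Of 54838 gene IDs, 54723 had symbols. The 2 samples of chromatin profiling in the series (Atf3) were not analysed here.

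The 12702 genes that reached 1 FPKM in 2 or more libraries were taken to log2(FPKM + 1) and fitted with limma 3.58.1 in R 4.3.3, with a trend in the variance, on 7 libraries in 4 groups with 3 residual degrees of freedom. Genes were called at a Benjamini-Hochberg adjusted p under 0.05. In the main analysis no p was computed for the group of 1 library, and limma with the spread of the other groups was added as an alternative. A gene was counted there when it lay at least 1 log2 unit past each library of the other group, with a mean of at least 1 FPKM over the libraries compared. No interaction between 4-OHT and Nec-1 was tested. The fitting code was tried on simulated data with known differences before use.

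The restriction factor genes, pathway lists and marker lists were named by symbol, with earlier results of these data known, and a symbol was matched to its Ensembl ID in the deposited tables. Promoter windows of 300 bases, 250 before and 50 after the annotated start, came from RefSeq on GRCm38.p6, and both strands were searched with overlaps allowed. Windows were aligned globally without cost for gaps at the ends. Scaling, filters, pseudocounts, a fold threshold, a replicate block and leaving out each library were tried as alternatives. Python 3.11.15, numpy 2.4.6, pandas 2.3.3, matplotlib 3.10.9 and Biopython 1.88 were used.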

Additional observations from a re-analysis of the deposited data

Results flagged for a closer look

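Some listed genes that reached 1 FPKM in any library differed in direction between Nec-1 in EtOH organoids and Nec-1 in 4-OHT organoids. A gene was counted only if every pairing of a Nec-1 with a DMSO library had 1 sign in EtOH and the opposite sign in 4-OHT. That held for 7 of 51 (13.7%), beside 1272 of 13469 genes in all (9.44%). Among the 7, *Rsad2* was the only restriction factor, while more genes had means of opposite sign with overlapping libraries, *Ifit1* (0.05 and -2.05) and *Ifit3* (0.09 and -3.44) among them. The difference of *Rsad2* was 0.21 in EtOH and -2.28 in 4-OHT, a gap of -2.49 log2 units. The EtOH value of *Rsad2* is unsteady, at 0.09 to 0.32 with 1 library left out and 0.99 with a pseudocount of 0.1. For *Usp18* the differences were 0.12 and -3.04 (gap -3.16), and for *Mx2* 0.12 and -1.95 (gap -2.08). Both EtOH values are unsteady, resting on low FPKM and mainly on the second EtOH Nec-1 library. *Usp18* stood at 0.0180 and 0 FPKM (EtOH DMSO) and 0.0205 and 0.178 (EtOH Nec-1). In the same order *Mx2* stood at 0.119 and 0.132, and at 0.168 and 0.289. *Mx2* reached 1 FPKM only in the 4-OHT DMSO libraries, so its direction in 4-OHT was fixed and it is no support. The other 4 were smaller, with *Ifnar2* at 0.18 and -0.27 (gap -0.45), *Irf9* at -0.25 and 0.10 (gap 0.35), *Mavs* at -0.16 and 0.10 (gap 0.25) and *Socs3* at -0.08 and 0.14 (gap 0.22). With median centring the EtOH difference of *Socs3* was 0.01, so its direction depends on scaling. The 4-OHT side rests on 1 library with Nec-1, and the difference between the 2 effects was not tested.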

How the results depend on the processing

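In 4-OHT DMSO against EtOH DMSO, 7 of the 7 restriction factor genes tested were called in the main analysis, beside 5237 of 12702 genes in all. When every library had to reach 1 FPKM, fewer could be tested, and 4 of 4 were called, beside 4504 of 10440 genes in all. With so many genes called, these counts are no measure of how the family behaves. With an added fold threshold of 1 log2 unit 6 were called, *Ifitm2* having dropped out, and all genes called went from 5237 to 1319. Leaving out 1 of the 4 libraries compared gave 3628 to 4619 genes and the same 7. The reduced group then had 1 library, as 4-OHT Nec-1 has, and the spread came from the other groups. Among those 7 the highest limma adjusted p over all settings was 0.0128 for *Ifitm2* and 0.0117 for *Ifit3b*. With no filter *Ifit2* and *Ifitm1* were tested and not called (limma adjusted p = 0.340 and 0.117). With only the second 4-OHT DMSO library the value of *Ifit2* was 0.30, and with only the first 2.31. Called genes were 59.5% higher (3117 higher, 2120 lower) without centring and 41.0% higher (2213 and 3187) with median centring.

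In EtOH Nec-1 against EtOH DMSO, 28 genes were called, 8 with no filter, 79 from only the 4 libraries of the comparison, and 9 to 14 without 1 of those 4. Restriction factor genes stayed at 0 throughout. *Ifit3* reversed from 0.09 to -0.0191 without EtOH DMSO replicate 2 (range -0.0191 to 0.20). *Ifit1* reversed from 0.05 to -0.00993 without EtOH Nec-1 replicate 1 (range -0.00993 to 0.11).

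The replicate block pairs libraries that share only a replicate number, and deviations correlated by -0.040, 0.0065 and -0.012. With the replicate block 4697 genes were called in the first comparison and 19 in the second, with 7 and 0 restriction factor genes.

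In 4-OHT Nec-1 against each 4-OHT DMSO library, 146 genes were counted, 255 with a pseudocount of 0.1, 97 at a mean of 5 FPKM, 526 with only the second 4-OHT DMSO library and 241 with only the first. Restriction factor genes were 6, or 7 with only the first, where *Ifit2* was added and had to differ. Limma with the spread of the other groups, an alternative chosen after seeing the data that tests a group of 1 library and is no support, called 92 genes and 6 of these. *Ifit2* ranged from -1.96 to 0.05.

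In 4-OHT Nec-1 against each EtOH Nec-1 library, 498 genes were counted, 753 with a pseudocount of 0.1, 296 at a mean of 5 FPKM, and 643 to 650 without 1 library. Restriction factor genes were 5, and 2 of 4 considered at a mean of 5 FPKM. The same limma alternative, again no support, called 556 genes and 3 of these.

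With a pseudocount of 0.1 the log2 fold change of *Rsad2* in 4-OHT DMSO against EtOH DMSO went from 3.96 to 6.42. The cause of these shifts was not tested. The main limits are 2 libraries per group or fewer, no replicate of 4-OHT Nec-1, *Mettl3* not lower in the libraries labelled 4-OHT, no control for 4-OHT without Cre, and FPKM that do not tell how paralogs were kept apart.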
